A study of Homo sapiens with 42 samples.

Results

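The miR-29 family was taken as the 3 mature entries miR-29a-3p, miR-29b-3p and miR-29c-3p, picked by name from the 2657 mature miRNA entries of the deposited count table. The study sequenced small RNA of nuclei and cytoplasm in 3 lines, HEK293, A375 and SHSY5Y, each grown to confluent and subconfluent density, and of an AGO1-4 immunoprecipitation (IP) in HEK293 at both densities, with 3 libraries in each of 14 groups. The lines are established human lines of embryonic kidney, melanoma and neuroblastoma origin, and confluency is the share of the growth surface that the cells cover. Nuclei and cytoplasm were separated by hypotonic lysis followed by lysis of the nuclear pellet, and in the IP a Flag-tagged T6B peptide, which binds all 4 human AGO proteins, was used to pull down miRNAs held by them. None of the groups carried another treatment or genetic change that the labels name.

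The third libraries of HEK293 confluent nucleus and of SHSY5Y confluent nucleus held 39 and 31 miRNA counts and were left out, so those groups had 2 libraries. The other 34 fraction libraries held 9817 to 53775 counts each, with a median of 23407, and the 6 IP libraries held 910753 to 1124959. Assigned miRNA counts were 0.172% to 0.767% of the sequenced reads in the fractions and 7.00% to 11.9% in the IP. A summary table of the study carries the means of the deposited confluent nuclear libraries under the name of subconfluent cytoplasm, and those of subconfluent cytoplasm under the name of confluent nucleus, in all 3 lines. The names of the deposited columns were kept. They carry adapter numbers in the order in which the study's adapter list gives its samples, with cytoplasm and nucleus in turn. Entries detected in the HEK293 IP took 91.4% to 94.3% of counts in HEK293 confluent nucleus. They took 87.7% to 91.3% in HEK293 subconfluent nucleus and 60.6% to 68.4% in its subconfluent cytoplasm. In A375 they took 50.9% to 79.1% in confluent nucleus, 85.2% to 87.6% in subconfluent nucleus and 67.0% to 80.2% in subconfluent cytoplasm. SHSY5Y gave 68.5% to 76.6%, 88.4% to 90.4% and 60.7% to 71.0% in the same order. In A375 and SHSY5Y, confluent nucleus thus overlapped subconfluent cytoplasm and lay wholly below subconfluent nucleus. No RNA marker of either compartment is among the miRNA entries. Within lines, called results that the other naming changes are given with both values. The comparisons between lines, and those of the IP with cytoplasm, were made with the deposited names only.

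miRNAs of the miR-29 family are loaded into AGO proteins and repress mRNAs that pair with the seed, the bases near the 5′ end of the mature strand. Known targets include collagens and other matrix proteins, the DNA methyltransferases DNMT3A and DNMT3B, and the anti-apoptotic protein MCL1, and transcription of the family is repressed by MYC. miR-29b is a classical example of a nuclear miRNA, because a hexanucleotide at its 3′ end was found in human cells to direct small RNAs into the nucleus, whereas miR-29a has the same seed but another 3′ end.

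The mature strands from RefSeq (GRCh38.p14) are printed 5′ to 3′, since the difference between members lies at the end of the strand. Capitals mark the seed (bases 2 to 8) and, in miR-29b-3p, the final 6 bases, which are the nuclear import element.
miR-29a-3p: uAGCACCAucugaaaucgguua
miR-29b-3p: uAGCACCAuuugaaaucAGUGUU
miR-29c-3p: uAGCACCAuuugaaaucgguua

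The seed AGCACCA was found in 3 of 2370 mature names, which are these 3 members. Counted from 1 at the 5′ end, miR-29c-3p differed from miR-29a-3p by C10U only. miR-29b-3p shared its first 17 bases with miR-29c-3p, differed from it by G18A, U21G and A22U, and was 1 base longer, at 23 against 22 nucleotides. The final element AGUGUU was held on the mature strand by 13 of the 2370 names (0.549%) and stood at the very end in 2 (0.0844%), miR-29b-3p and miR-519e-3p. miR-519e-3p had 9 counts over all fraction libraries and 0 in the IP and could not be tested. How reads that fit more than 1 member were divided is not given in the sources used here, so a short read ending before base 18 could stand for miR-29b-3p or miR-29c-3p.

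The family is encoded by 4 hairpins at 2 loci, all on the minus strand. MIR29A (chr7:130876747-130876810) and MIR29B1 (chr7:130877459-130877539) lie 648 bases apart, and MIR29C (chr1:207801852-207801939) and MIR29B2 (chr1:207802443-207802523) lie 503 bases apart. In GENCODE v44 the chromosome 7 pair lies within LINC-PINT, a long non-coding RNA on the same strand, in an exon of 1 of the 12 transcripts that span it and in introns of the others, and opposite introns of the antisense LINC00513. The chromosome 1 pair lies within MIR29B2CHG, the long non-coding host gene, in an exon of 1 of the 5 transcripts that span it. miR-29b-3p has the same sequence from both of its hairpins, so its single entry does not tell them apart. How reads that fit both hairpins were counted is not given in the sources used here. The opposite (5p) strands differ and are shown because they tell the hairpins apart.
miR-29a-5p: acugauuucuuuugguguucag
miR-29b-1-5p: gcugguuucauauggugguuuaga
miR-29b-2-5p: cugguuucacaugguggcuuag
miR-29c-5p: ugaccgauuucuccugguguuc

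miR-29b-3p took between 0.0563% and 1.60% of the miRNA counts of a library. Its group means ran from 1.10% ± 0.51 in A375 confluent cytoplasm (SD, n = 3), through 0.809% ± 0.043 in the HEK293 confluent IP and 0.798% ± 0.254 in SHSY5Y subconfluent nucleus, to 0.0819% ± 0.0162 in SHSY5Y confluent cytoplasm (n = 3 each) and 0.0761% ± 0.0229 in HEK293 confluent nucleus (n = 2). When the 14 groups were ordered by this mean, the ranges of neighbouring groups overlapped in 11 of 13 steps, the exceptions being those on either side of SHSY5Y confluent nucleus (0.120% and 0.134%). miR-29a-3p, processed from the chromosome 7 pair, was highest in the 4 A375 groups, at 0.705% to 1.76% per library, and lowest in HEK293 subconfluent cytoplasm, at 0.0702% to 0.0749%, with 9 of 13 neighbouring groups overlapping. miR-29c-3p, from chromosome 1, was highest in the HEK293 IP, at 0.507% to 0.636%, and lay at 0.0130% to 0.237% in all fraction libraries, with 12 of 13 neighbouring groups overlapping. Shares are relative to all miRNA counts of a library, and these bulk libraries do not tell fewer copies per cell from fewer expressing cells.

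**Figure D1:**
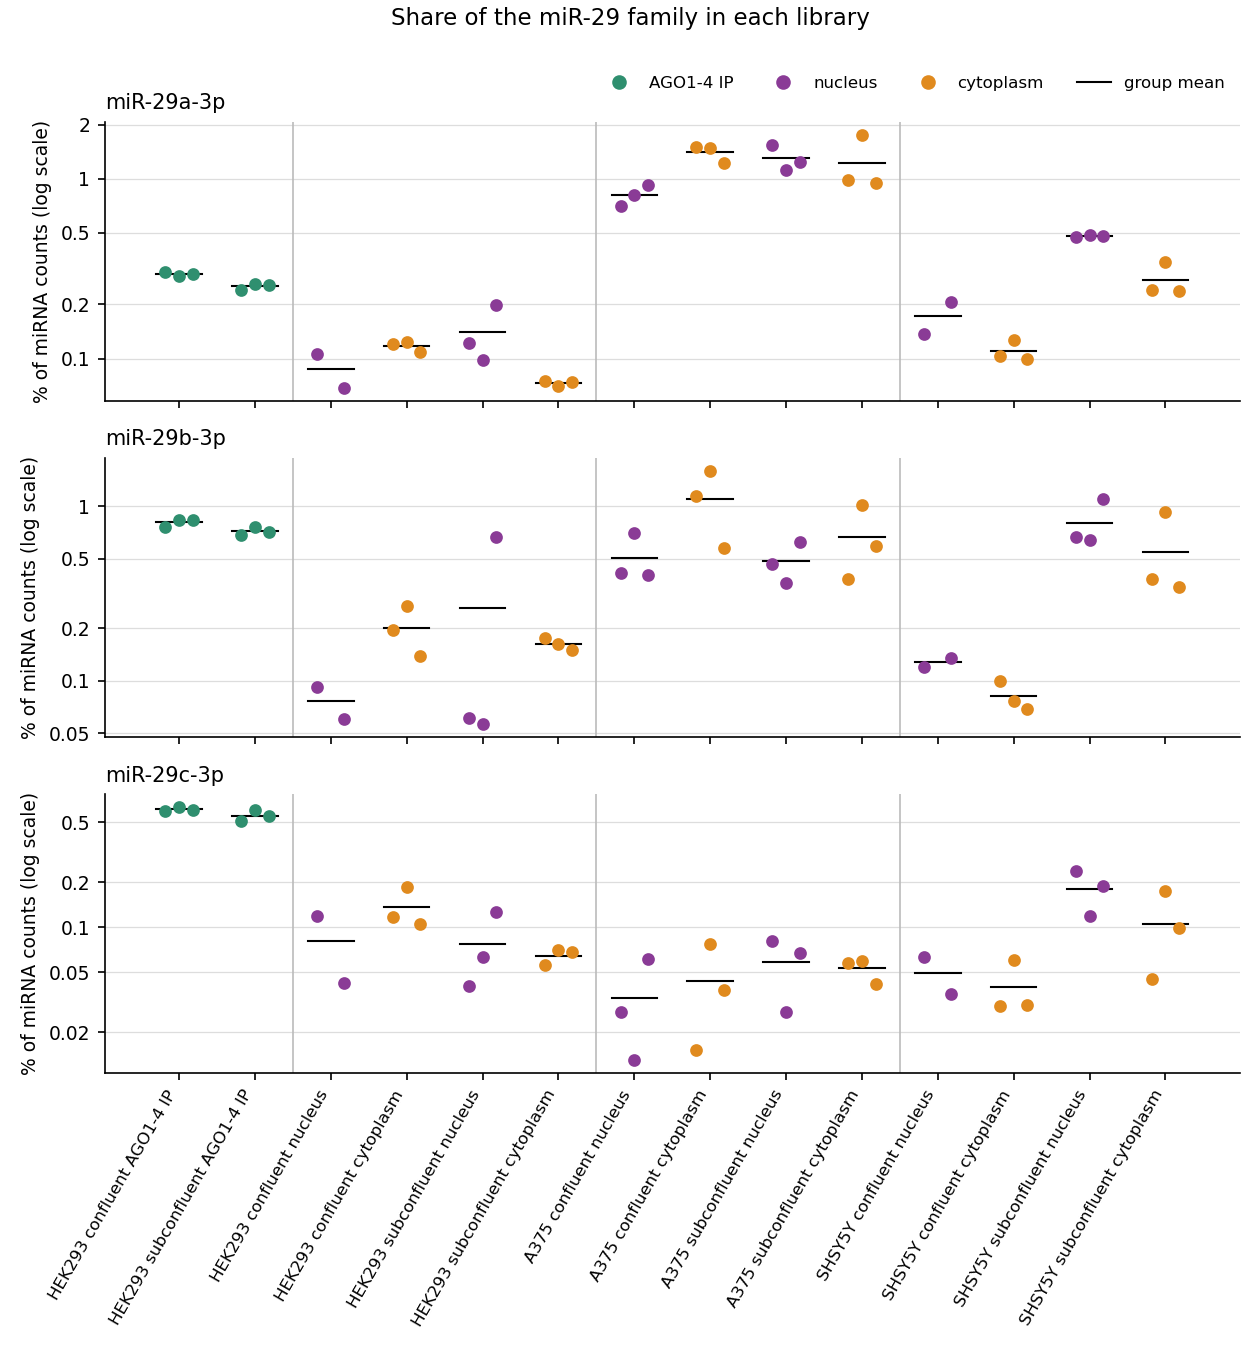
Share of all miRNA counts taken by each member (percent, log axis) in every library kept, with 1 point per library and a line at the group mean; colours give the AGO1-4 IP, nucleus and cytoplasm. The 3 points of HEK293 subconfluent nucleus are split for miR-29b-3p, at 0.0611%, 0.0563% and 0.668%, and SHSY5Y subconfluent libraries lie above the confluent ones for miR-29a-3p and miR-29b-3p.

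Nucleus and cytoplasm were compared member by member with edgeR's quasi-likelihood test on counts, in 1 fit per line, with p-values adjusted over all entries tested in that fit and a threshold of 0.05. Levels within a line are given as CPM, the count scaled to a library of 1000000 counts, after TMM scaling. This scaling assumes that most entries do not change. Whether the CPM ranges of groups overlapped is given as a description, for the members only. It was not counted for the other entries, and groups with so few libraries can separate by chance. Separation of ranges alone is therefore not taken as a difference. In HEK293, miR-29b-3p had 925 and 709 CPM in confluent nuclei and 633, 602 and 7852 CPM in subconfluent nuclei. It had 1732, 2427 and 1277 CPM in confluent cytoplasm and 1735, 1473 and 1445 CPM in subconfluent cytoplasm. Of the 5 nuclear libraries 4 lay below every cytoplasmic one, and the remaining library, subconfluent nucleus replicate 3, lay above all others. Over both confluencies the log2 fold change of nucleus against cytoplasm was -0.03 ± 0.47 (SE), with an adjusted p of 0.962 by edgeR and a 95% interval of -1.01 to 0.95. With the names of the summary table it was 0.86 (adjusted p = 0.230 by edgeR).

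That estimate was decided by subconfluent nucleus replicate 3, which held 158 counts of miR-29b-3p, against 6 and 8 in the other libraries of its group. It also held 47 counts of miR-29a-3p, against 12 and 14, and 30 of miR-29c-3p, against 4 and 9, in a library of 23651 counts. Without it the nuclear level of miR-29b-3p was lower, by -1.18 on the log2 scale (adjusted p = 0.00237 by edgeR), and it was -1.09 (0.0449) in confluent and -1.27 (0.022) in subconfluent cells. With it kept and replicate 1 or 2 of the same group left out, miR-29b-3p was called the other way in subconfluent cells, at up to 1.56 (adjusted p = 0.0180 without replicate 1 and 0.00765 without replicate 2, by edgeR). Across entries the library had a mean correlation of 0.885 with the other libraries of its group, beside 0.886 and 0.896 for replicates 1 and 2, and was closest to HEK293 confluent nucleus replicate 1, at 0.900. No label or total count marked it for removal, so both estimates are given.

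The other members did not pass the test in HEK293 over both confluencies. miR-29a-3p had 1057 and 811 CPM in confluent nuclei and 1265, 1053 and 2336 CPM in subconfluent nuclei, against 1076, 1116 and 1006 CPM in confluent cytoplasm and 738, 635 and 722 CPM in subconfluent cytoplasm. The confluent fractions overlapped, and the subconfluent nuclei lay above the subconfluent cytoplasm in every library. Over both confluencies the log2 fold change was 0.51 ± 0.27 (SE; adjusted p = 0.110 by edgeR), and miR-29c-3p gave 0.05 ± 0.32 (adjusted p = 0.909). In HEK293, 53.9% of the 345 entries tested passed in either direction, against 0 of 3 members. In subconfluent cells alone, miR-29a-3p was 2.29-fold higher in nuclei (log2 1.20, adjusted p = 0.00568 by edgeR), where 19.4% of entries were called higher; without replicate 3 it was 0.77 (adjusted p = 0.0905). That call was also lost with no filter (1.06), on entries detected in the IP (0.75) and with the names of the summary table (0.76). miR-29b-3p was at 1.08 (adjusted p = 0.115) and miR-29c-3p at 0.58 (adjusted p = 0.243) there. In confluent cells 0 of 3 members were called, against 22.3% of entries, with miR-29b-3p at -1.13 and an interval of -2.76 to 0.49.

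In A375, miR-29b-3p had 4543, 6703 and 4244 CPM in confluent nuclei, against 10677, 14049 and 5402 CPM in confluent cytoplasm. In subconfluent A375 cells it had 4622, 3878 and 6598 CPM in nuclei, against 4069, 9985 and 6009 CPM in cytoplasm. The fractions overlapped at both confluencies, and the nuclear values lay towards the low end. The log2 fold change of nucleus against cytoplasm was -0.69 ± 0.28 (SE), with an adjusted p of 0.0712 by edgeR and an interval of -1.25 to -0.12; scaling by library totals in place of TMM gave -0.79, past the threshold. Leaving out confluent cytoplasm replicate 3 gave -0.86 (adjusted p = 0.0283 by edgeR), and leaving out subconfluent cytoplasm replicate 1 gave -0.83 (adjusted p = 0.0337).

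miR-29a-3p, the most abundant member in A375, had 7727, 7758 and 9712 CPM in confluent nuclei, against 14044, 13139 and 11435 CPM in confluent cytoplasm, and these did not overlap. In subconfluent A375 cells the ranges overlapped, at 15272, 11924 and 13087 CPM in nuclei, against 10440, 17260 and 9658 CPM in cytoplasm. The difference was -0.26 ± 0.22 over both confluencies (SE; adjusted p = 0.461 by edgeR) and -0.62 (adjusted p = 0.185) in confluent cells. miR-29c-3p was rare in A375, with 2 to 24 counts per library, and its log2 fold change of -0.01 had an interval of -0.85 to 0.82. Of the 265 entries tested in A375, 21.5% passed over both confluencies, 12.5% in confluent and 20.0% in subconfluent cells, against 0 of 3 members each time.

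In SHSY5Y, miR-29a-3p and miR-29b-3p were called higher in nuclei than in cytoplasm and miR-29c-3p missed the threshold, but the call of miR-29b-3p depended on the processing. miR-29b-3p had 1100 and 1194 CPM in confluent nuclei, against 887, 758 and 775 CPM in confluent cytoplasm, with no overlap. It had 9123, 7895 and 13345 CPM in subconfluent nuclei, against 3190, 8365 and 2695 CPM in subconfluent cytoplasm, where only cytoplasm replicate 2 reached the nuclear range. Over both confluencies it was 1.73-fold higher in nuclei (log2 0.79 ± 0.27 SE, adjusted p = 0.0100 by edgeR), miR-29a-3p was 1.90-fold higher (0.93 ± 0.22, adjusted p = 4.44e-04), and miR-29c-3p was at 0.76 ± 0.35 (adjusted p = 0.0519). Of the 348 entries tested, 33.9% were called higher in nuclei and 37.4% lower. By these calls most entries differed between the fractions, which TMM scaling assumes they do not. The call of miR-29b-3p was lost without confluent cytoplasm replicate 2 (0.52), confluent cytoplasm replicate 3 (0.50) or confluent nucleus replicate 2 (0.58). It was also lost with DESeq2 (0.67), library totals (0.58), no filter (0.61), all libraries kept (0.59) or library sizes after the filter (0.60), and that of miR-29a-3p with no filter (0.69). With the names of the summary table the 3 members stood at 1.55, 2.85 and 1.76 in the order miR-29a-3p, miR-29b-3p, miR-29c-3p.

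In subconfluent SHSY5Y cells, all 3 members passed the test. miR-29a-3p had 6533, 6024 and 5866 CPM in subconfluent nuclei, against 2014, 3124 and 1864 CPM in subconfluent cytoplasm, with no overlap. miR-29c-3p had 3267, 1459 and 2296 CPM in subconfluent nuclei, against 378, 1575 and 775 CPM in subconfluent cytoplasm, and 1 library of each fraction fell within the range of the other. There the log2 fold changes were 1.39 (adjusted p = 5.69e-05 by edgeR), 1.09 (0.00228) and 1.32 (0.00199) for miR-29a-3p, miR-29b-3p and miR-29c-3p, where 32.5% of entries were called higher. Without subconfluent nucleus replicate 1, miR-29c-3p gave 0.87 (adjusted p = 0.0827 by edgeR). Scaling by library totals lost the calls of miR-29b-3p (0.54) and miR-29c-3p (0.73), and a fit on entries detected in the IP lost all 3, at 0.59, 0.33 and 0.49. In confluent cells the values were 0.47, 0.49 and 0.20 and 0 of 3 members passed, against 54.9% of entries. Under the other naming the 3 members passed in confluent cells too, at 1.09, 2.55 and 1.20. That comparison is the deposited subconfluent against confluent cytoplasm, where 25.3% of entries were called in the same direction.

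The shift between fractions was tested for a difference between confluencies within each line, and 0 of 9 member and line combinations passed. Confluent minus subconfluent, HEK293 had log2 differences of -1.37, -2.21 and -1.06, A375 of -0.72, -0.56 and -0.39, and SHSY5Y of -0.92, -0.60 and -1.12, each in the order miR-29a-3p, miR-29b-3p, miR-29c-3p. The share of all entries that passed was 4.06% in HEK293, 14.7% in A375 and 1.44% in SHSY5Y.

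**Figure D2:**
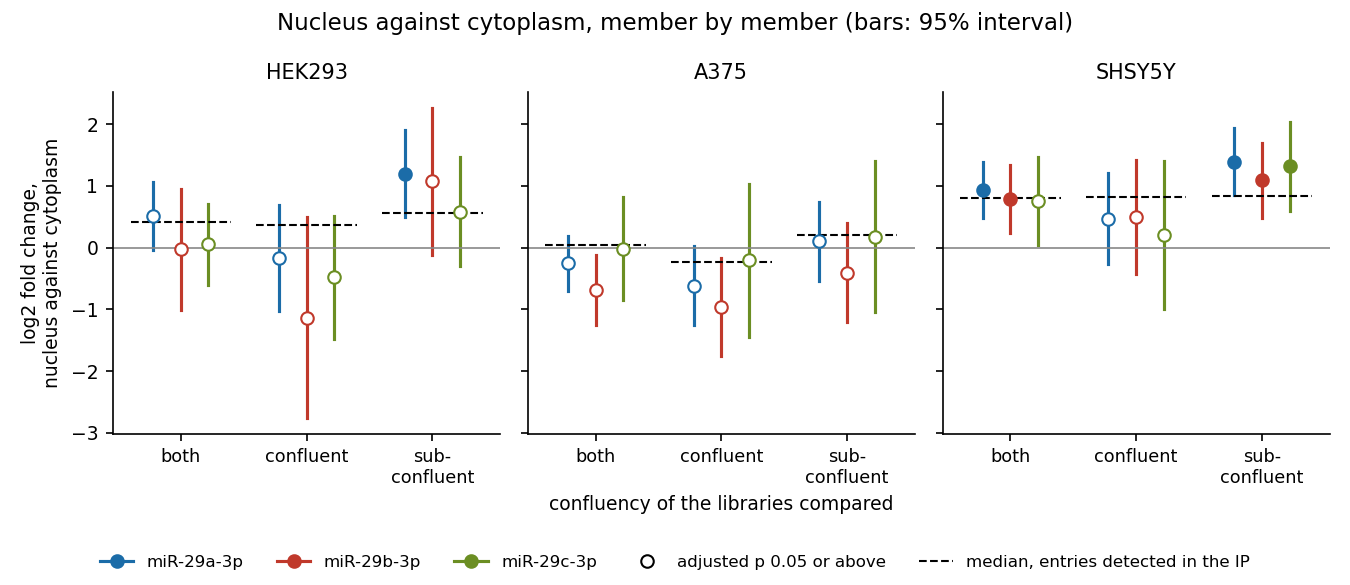
Log2 fold change of nucleus against cytoplasm for each member in each line, over both confluencies and within each, with 95% intervals from the edgeR fit. Filled points passed an adjusted p of 0.05, and the dashed line is the median of all tested entries that were also detected in the AGO1-4 IP. In SHSY5Y over both confluencies the members lie at 0.93, 0.79 and 0.76, around that median of 0.81.

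The members were set beside the entries that were also detected in the HEK293 AGO1-4 IP, meaning at least 10 counts in at least 3 of its libraries. In SHSY5Y the median nuclear difference of these 191 entries was 0.81, against -1.38 for entries not detected in the IP, and 43.5%, 50.8% and 53.4% of them lay above miR-29a-3p, miR-29b-3p and miR-29c-3p. In HEK293 the median was 0.42 over 194 entries, and 75.3% of them lay above miR-29b-3p. In A375 it was 0.05 over 150 entries, and 84.7% lay above miR-29b-3p. When SHSY5Y was refitted on the IP-detected entries alone, the nuclear difference of miR-29a-3p was 0.20 and that of miR-29b-3p 0.09, and neither passed the test. The IP-detected entries took 88.4% to 90.4% of counts in subconfluent nuclei and 60.7% to 71.0% in subconfluent cytoplasm of SHSY5Y, and 68.5% to 76.6% in confluent nuclei and 31.7% to 37.5% in confluent cytoplasm. This share moved with the fraction and the confluency as the members did, and its part in the result was not tested.

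Another way to place the members is beside miRNAs with a shared feature. Of the 13 names that hold AGUGUU, only miR-29b-3p could be tested in HEK293 and A375, and in SHSY5Y it was joined by miR-199a-5p, which holds the letters inside the strand and was at -0.10 in nuclei against cytoplasm (adjusted p = 0.764 by edgeR). Of 14 other miRNAs reported as repressed by MYC, 9 of the 11 tested were higher in SHSY5Y nuclei, beside 33.9% of all entries and 112 of the 191 IP-detected ones, with a median of 1.11, led by let-7d-5p at 1.42, miR-22-3p at 1.28 and let-7a-5p at 1.20. In HEK293 5 of 11 were higher, beside 18.8% of all entries and 61 of the 194 IP-detected ones, with a median of 0.36. In A375 0 of 10 were higher, beside 7.55% of all entries and 3 of the 150 IP-detected ones, with a median of -0.03. The medians of all entries tested were 0.02 in SHSY5Y, -0.28 in HEK293 and 0.03 in A375.

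The ratio of miR-29b-3p to another member within a library does not depend on how libraries are scaled, and miR-29a-3p and miR-29c-3p lack the element. Ratios were taken after adding 0.5 to each count and were compared between fractions by a two-sided exact permutation test of log2 ratios within each confluency, with 6 comparisons adjusted together. In HEK293 the ratio of miR-29b-3p to miR-29a-3p was 0.520 to 3.34 in nuclei (median 0.879, n = 5), against 1.26 to 2.32 in cytoplasm (median 2.07, n = 6). The mean log2 difference was -1.01, with an exact p of 0.065, an adjusted p of 0.390 and an interval of -1.94 to 0.04. All nuclear libraries but subconfluent replicate 3 lay below the cytoplasmic range. Without that library the difference was -1.44, with an adjusted exact p of 0.060. That is the smallest value that 1 ratio alone could reach with the fewer relabelings left, so a call was not possible there. Under the names of the summary table the difference was 0.31. In A375 the ratio was 0.305 to 0.865 in nuclei, against 0.392 to 1.07 in cytoplasm, a difference of -0.38 (exact p = 0.165, adjusted 0.487, interval -0.92 to 0.26).

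In SHSY5Y the ratio of miR-29b-3p to miR-29a-3p was 0.660 to 2.27 in nuclei, against 0.605 to 2.67 in cytoplasm. The difference was -0.08 (exact p = 0.720, interval -0.60 to 0.50), so a nuclear excess of miR-29b-3p over miR-29a-3p beyond 0.50 on the log2 scale lay outside the interval, and a smaller one was not detectable. With the names of the summary table this difference was 1.19 instead and passed (adjusted exact p = 0.030). Relative to miR-29c-3p, the differences were -0.45 in HEK293 (0.82 with the other names), -0.60 in A375 and 0.02 in SHSY5Y, with adjusted exact p-values of 0.487, 0.487 and 0.970. In A375 this ratio rested on few miR-29c-3p counts and ranged between 5.47 and 67.5. With the deposited names, in none of the 3 lines did miR-29b-3p pass the test for a nuclear excess over either member, in 6 comparisons of which the smallest attainable p was 0.005.

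**Figure D3:**
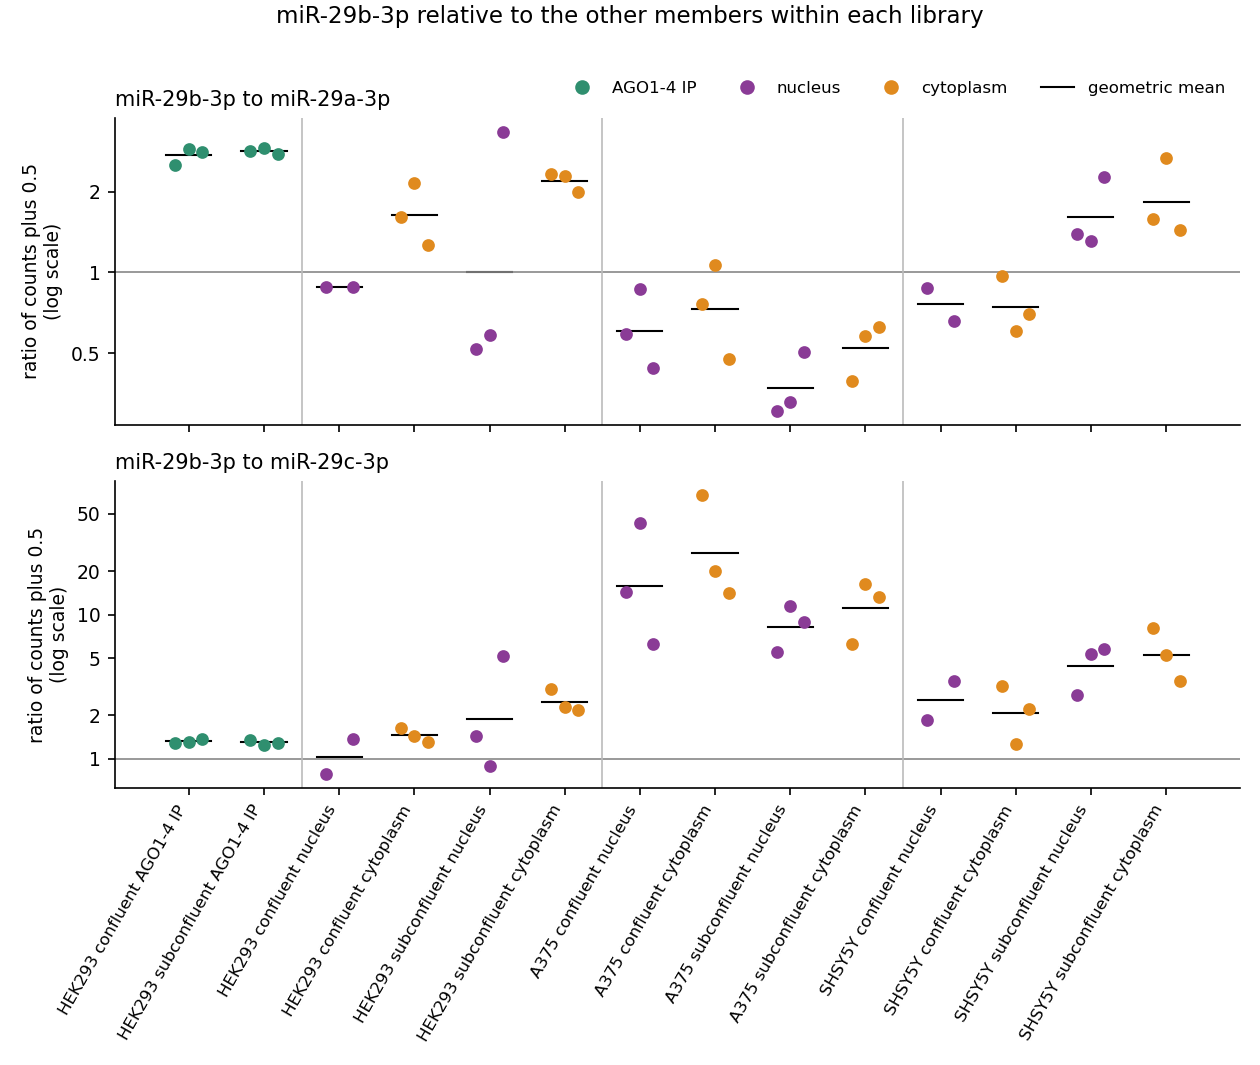
Ratio of miR-29b-3p counts to miR-29a-3p (upper panel) and to miR-29c-3p (lower panel) in every library kept, on log axes after adding 0.5 to each count, with 1 point per library and a line at the geometric mean. In HEK293 the ratio to miR-29a-3p is 2.52 to 2.92 in the AGO1-4 IP and 1.26 to 2.32 in cytoplasm, and the nuclear library at 3.34 is subconfluent replicate 3.

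Each fraction library of a line had its own 3′ adapter, and the libraries of 1 group and replicate number shared that adapter across the lines. Subconfluent nucleus replicate 3 had the highest ratio of miR-29b-3p to miR-29a-3p of its group in all 3 lines, at 3.34 in HEK293, 0.505 in A375 and 2.27 in SHSY5Y. As a description over the 11 adapters that a pair of lines shared, the deviations of this ratio from the group means correlated with r = 0.58 between A375 and HEK293, 0.53 between SHSY5Y and HEK293 and 0.16 between A375 and SHSY5Y, and Spearman's rho was 0.57, 0.21 and -0.09. Without that library of each line r was 0.62, -0.08 and -0.13. The part of the adapter in the spread of the ratio was not tested.

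The IP shows which members were held by AGO proteins in HEK293 cells. Its input is described as cytoplasmic fraction in one source and whole cell lysate in another, so the comparison with cytoplasm has that limit. The ratio of miR-29b-3p to miR-29a-3p was 2.52 to 2.92 in the 6 IP libraries, against 1.26 to 2.32 in the 6 cytoplasmic libraries of HEK293, and every IP library lay above every cytoplasmic one. The mean log2 difference was 0.56 (exact permutation p = 0.005, the smallest that the 400 relabelings allow; adjusted p = 0.010; interval 0.28 to 0.84). The ratio of miR-29b-3p to miR-29c-3p was 1.25 to 1.37 in the IP, against 1.31 to 3.06 in cytoplasm, a difference of -0.54 (exact p = 0.010, adjusted 0.010, interval -0.92 to -0.16), with overlap in 1 of the confluencies. Thus, with the deposited names, relative to miR-29b-3p the IP held less miR-29a-3p and more miR-29c-3p than the cytoplasm. The ratio to miR-29c-3p was 2.16 to 3.06 in subconfluent cytoplasm and 1.31 to 1.64 in confluent cytoplasm. It was 0.784 to 1.36 in confluent nucleus (n = 2), the libraries that the summary table names subconfluent cytoplasm. The IP was not compared with cytoplasm under that naming, so the miR-29c-3p part depends on the names. IP and fraction libraries were made and sequenced in separate pools, so library type and pool cannot be told apart.

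Confluent and subconfluent cells were compared within each fraction, the comparison for which the cells were grown. In SHSY5Y, all 3 members were lower in confluent cells in both fractions. For miR-29b-3p the confluent and subconfluent values given above did not overlap in nuclei or in cytoplasm. It was 8.86-fold lower in confluent nuclei (log2 -3.15 ± 0.42 SE, adjusted p = 6.26e-07 by edgeR) and 5.85-fold lower in confluent cytoplasm (-2.55 ± 0.35, adjusted p = 2.76e-07). These differences kept their direction and call in every alternative that kept the deposited names, and with the names of the summary table they were -1.09 in nuclei and -0.49 in cytoplasm, the second not past the threshold.

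miR-29a-3p in SHSY5Y had 1257 and 1830 CPM in confluent nuclei, against 6533, 6024 and 5866 CPM in subconfluent nuclei. It had 917, 1263 and 1114 CPM in confluent cytoplasm, against 2014, 3124 and 1864 CPM in subconfluent cytoplasm. The groups did not overlap in either fraction, and it was 4.04-fold lower in nuclei (adjusted p = 2.46e-05 by edgeR) and 2.13-fold lower in cytoplasm (adjusted p = 0.00198). Under the other naming the cytoplasmic calls of miR-29a-3p (-0.47) and miR-29c-3p (-0.20) were lost, and the nuclear ones held at -1.39 and -1.32. Under it 32.5% of entries were called lower in confluent nuclei. miR-29c-3p had 576 and 318 CPM in confluent nuclei and 266, 600 and 339 CPM in confluent cytoplasm, against the subconfluent values above, which it did not overlap in nuclei and did in cytoplasm. It was 4.97-fold lower in nuclei (adjusted p = 5.83e-04 by edgeR) and 2.30-fold lower in cytoplasm (adjusted p = 0.0150). The cytoplasmic call of miR-29c-3p was lost without confluent cytoplasm replicate 1 (-0.92), confluent cytoplasm replicate 3 (-1.12) or subconfluent cytoplasm replicate 2 (-0.75), under DESeq2 (-1.10) and on IP-detected entries (-0.61).

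Of all entries tested in SHSY5Y, 22.1% were called lower in confluent nuclei and 25.3% in confluent cytoplasm, and 17.8% and 33.6% were called higher. IP-detected entries had medians of -0.69 in nuclei and -0.69 in cytoplasm, and 96.9% and 96.3% of them lay above miR-29b-3p. Refitted on those entries alone, miR-29b-3p was at -2.40 in nuclei and -1.91 in cytoplasm, both past the threshold, and miR-29a-3p was at -1.27 in nuclei (adjusted p = 0.00260 by edgeR) and -0.49 in cytoplasm (adjusted p = 0.123). Of the 11 other MYC-repressed miRNAs tested, 8 were lower in confluent nuclei, with a median of -1.05, and 8 in confluent cytoplasm, with a median of -0.80. Of the 191 IP-detected entries, 74 were lower in confluent nuclei and 80 in confluent cytoplasm.

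**Figure D4:**
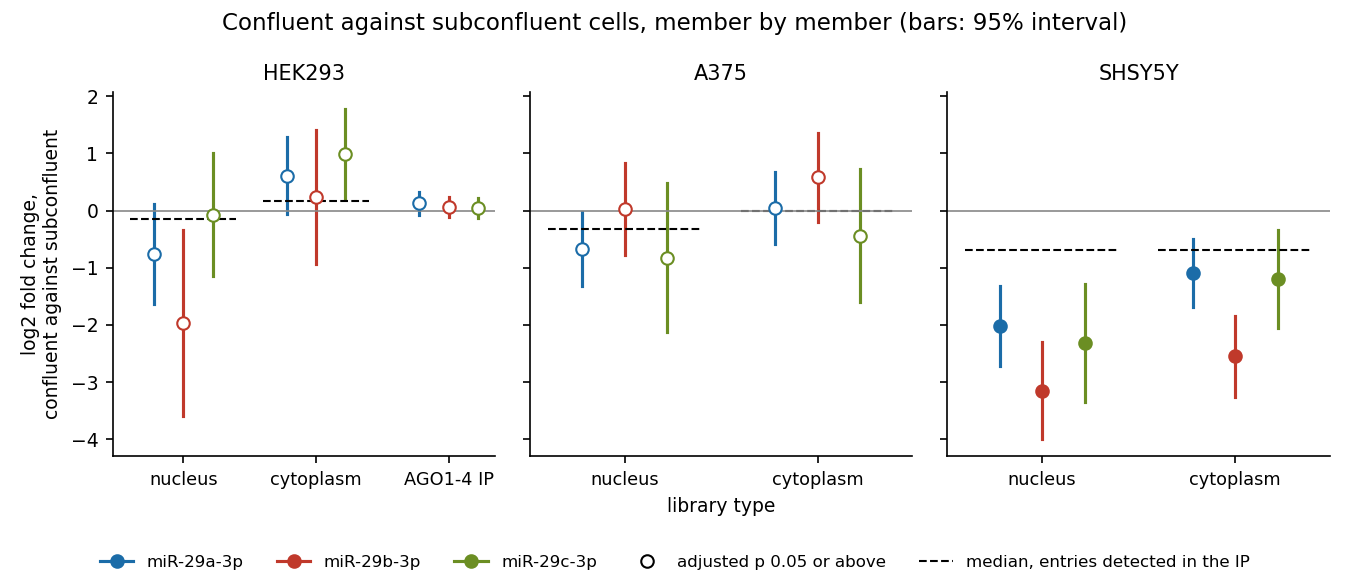
Log2 fold change of confluent against subconfluent cells for each member, by line and library type, with 95% intervals from the edgeR fit. Filled points passed an adjusted p of 0.05, and the dashed line is the median of tested entries that were detected in the AGO1-4 IP (not drawn for the IP itself). All 6 filled points are in SHSY5Y, with miR-29b-3p at -3.15 in nuclei and -2.55 in cytoplasm.

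In HEK293 and A375, 0 of 3 members passed this comparison in either fraction. HEK293 gave -0.76, -1.97 and -0.07 in nuclei and 0.61, 0.24 and 0.99 in cytoplasm, in the order miR-29a-3p, miR-29b-3p, miR-29c-3p, and 1.16% and 28.4% of entries passed. The nuclear value of miR-29b-3p was 0.42 without subconfluent nucleus replicate 3 and -2.45, past the threshold, without replicate 2. With the names of the summary table miR-29a-3p was called lower in confluent nuclei, at -1.20, where 19.4% of entries were. miR-29c-3p in HEK293 had 1053, 1674 and 968 CPM in confluent cytoplasm, against 554, 635 and 662 CPM in subconfluent cytoplasm, which did not overlap (adjusted p = 0.0573 by edgeR). A375 gave -0.68, 0.03 and -0.82 in nuclei and 0.05, 0.58 and -0.44 in cytoplasm, where 24.9% and 28.3% of entries passed. In the IP, where libraries were deepest, miR-29b-3p had 7837, 7541 and 8000 CPM in confluent cells, against 7514, 7436 and 7342 CPM in subconfluent cells. The ranges did not overlap, and the log2 differences of 0.12, 0.07 and 0.05 for miR-29a-3p, miR-29b-3p and miR-29c-3p did not pass the test, against 35.2% of the 537 entries. Their 95% intervals reached from -0.13 to 0.33. These values and the 35.2% come from a fit that did not pair the libraries, although same-numbered IP libraries deviated together. With the replicate number as a block miR-29a-3p passed at 0.12 (adjusted p = 0.0361 by edgeR). The share of all entries that passed in the blocked fit is not given here, so this call cannot be set against it. The confluent and the subconfluent IP libraries each had an index primer of their own, so confluency and indexed pool cannot be told apart in the IP.

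With the deposited names, the ratio between members also differed with confluency in SHSY5Y. The ratio of miR-29b-3p to miR-29a-3p was 0.605 to 0.968 in confluent libraries (median 0.702, n = 5), against 1.31 to 2.67 in subconfluent libraries (median 1.51, n = 6), with no overlap in either fraction. The mean log2 difference was -1.19 (exact permutation p = 0.005, adjusted over 6 comparisons 0.030, interval -1.74 to -0.60), and with any 1 library left out it was -1.29 to -1.05. It was 0.075 under the names of the summary table (adjusted exact p = 0.864), so neither its direction nor its call held. This test was added after the values were seen. With any 1 library left out, 80 to 120 relabelings remained, the adjusted exact p was 0.050 to 0.10, and the call was lost each time. With so few relabelings, 1 ratio alone cannot pass after adjustment over 6 comparisons, however large its difference. The lost calls therefore cannot show whether the result depends on 1 library. Relative to miR-29c-3p the difference was -1.07 (adjusted exact p = 0.075). In A375 the ratio to miR-29a-3p was 0.439 to 1.07 in confluent libraries, against 0.305 to 0.623 in subconfluent libraries, a difference of 0.60 (adjusted exact p = 0.100), and in HEK293 it was -0.31 (adjusted exact p = 0.725).

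The confluency difference was itself compared between lines in 1 fit over the 34 fraction libraries, also added after the values were seen. In cytoplasm, SHSY5Y differed from HEK293 by -2.03, -3.10 and -2.52 for miR-29a-3p, miR-29b-3p and miR-29c-3p (adjusted p = 5.29e-04, 0.00143 and 0.00403 by edgeR), where 32.0% of the 478 entries passed. In nuclei 0 of 3 members passed and 5.23% of entries did. A375 differed from SHSY5Y by 1.47 for miR-29a-3p and 3.46 for miR-29b-3p in cytoplasm, against 25.7% of entries, and by 3.28 for miR-29b-3p in nuclei (adjusted p = 0.0218 by edgeR), where 1.67% of entries passed. On IP-detected entries alone, 0 of 3 members passed for SHSY5Y against HEK293 in cytoplasm, whereas miR-29b-3p still passed for A375 against SHSY5Y in cytoplasm (2.62) and nuclei (2.75). Each line was 1 sequencing pool, so line and pool cannot be told apart. SHSY5Y cells were grown in RPMI medium and the other lines in DMEM. In comparisons with SHSY5Y, line and medium therefore cannot be told apart either.

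The levels of the members differed between lines. A375 exceeded HEK293 by 3.73 on the log2 scale for miR-29a-3p (adjusted p = 4.72e-23 by edgeR) and by 2.20 for miR-29b-3p (5.34e-09), and was lower for miR-29c-3p, at -0.71 (0.0294). SHSY5Y exceeded HEK293 by 1.29 for miR-29a-3p (adjusted p = 1.84e-08 by edgeR) and 0.82 for miR-29b-3p (0.0163), with miR-29c-3p at 0.02 (0.965). A375 exceeded SHSY5Y by 2.44 and 1.38 for miR-29a-3p and miR-29b-3p, with miR-29c-3p at -0.73 (adjusted p = 0.0338 by edgeR). Of all entries 65.9%, 70.9% and 55.6% passed these 3 comparisons. The lower miR-29c-3p level of A375 than HEK293 was not called with DESeq2 (-0.51) or on IP-detected entries (-0.27), nor on IP-detected entries against SHSY5Y (-0.60).

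The nuclear shift also differed between lines for miR-29a-3p and miR-29b-3p, by -1.21 and -1.51 in A375 against SHSY5Y (adjusted p = 0.00252 and 0.0321 by edgeR), where 30.3% of entries passed. Neither was called with DESeq2 (-0.70 and -1.04) or on IP-detected entries (-0.59 and -0.94). A375 against HEK293 and SHSY5Y against HEK293 gave 0 of 3 members each, against 13.0% and 6.69% of entries.

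The 5p strands showed which hairpins the counts came from, as shares of all miR-29 5p counts with Clopper-Pearson 95% intervals that cover counting error only. In the HEK293 IP 217 of 1505 such counts (14.4%, 12.7% to 16.3%) came from the chromosome 7 hairpins, and miR-29c-5p alone gave 1281. In the fractions of HEK293 the share was 57 of 77 (74.0%, 62.8% to 83.4%), with miR-29a-5p at 40 counts and miR-29c-5p at 15. Of the miR-29a-3p and miR-29c-3p counts together, miR-29a-3p took 32.0% in the IP and 51.6% in the HEK293 fractions. In A375 fractions it was 149 of 155 (96.1%, 91.8% to 98.6%), and in SHSY5Y fractions 49 of 69 (71.0%, 58.8% to 81.3%). The A375 share lay above those of the other lines, in the line where miR-29a-3p was highest and miR-29c-3p among the lowest.

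**Figure D5:**
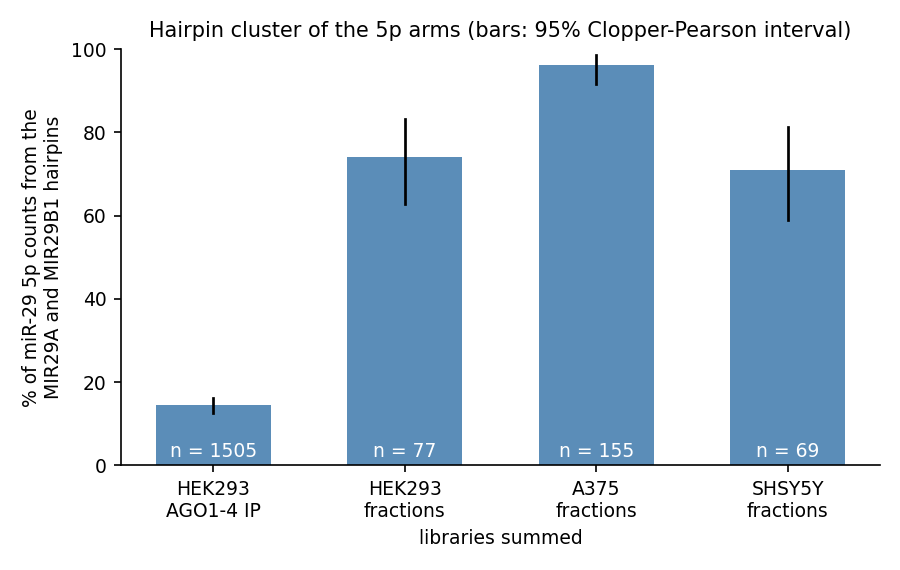
Percent of all miR-29 5p counts that came from the MIR29A and MIR29B1 hairpins of chromosome 7, with Clopper-Pearson 95% intervals, for libraries summed as named on the axis; n is the number of 5p counts. The share is 14.4% in the HEK293 AGO1-4 IP, 74.0% in HEK293 fractions, 96.1% in A375 fractions and 71.0% in SHSY5Y fractions.

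Among the 5p counts of miR-29b alone, the chromosome 7 hairpin MIR29B1 gave 19 of 26 in the IP, 17 of 22 in HEK293 fractions, 112 of 113 in A375 fractions (99.1%) and 29 of 34 in SHSY5Y fractions. Strands of a hairpin can be kept at different rates, so these shares do not give the source of miR-29b-3p itself. miR-29b-1-5p, the opposite strand of miR-29b-3p, was deep enough for the test in A375 only, where it was at -1.04 in nuclei against cytoplasm (adjusted p = 0.0766 by edgeR), beside -0.69 for miR-29b-3p. In the IP, miR-29a-5p and miR-29c-5p differed by 0.03 and -0.03 between confluent and subconfluent cells and did not pass the test.

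Likeness to miR-29b-3p was described by Pearson's r of log2 CPM after subtracting each line's mean, over the 34 fraction libraries and 460 entries, which share libraries and depth. The most alike entries were miR-193a-3p at 0.90, miR-17-3p at 0.86, miR-30a-5p at 0.85, miR-29a-3p at 0.84 and miR-7-5p at 0.82, and miR-29c-3p came 36th at 0.70. For miR-29a-3p the most alike was miR-17-3p at 0.91, and for miR-29c-3p it was miR-103a-3p at 0.81. Within lines, miR-29a-3p and miR-29b-3p correlated at 0.95 in SHSY5Y (11 libraries), 0.65 in HEK293 (11) and 0.58 in A375 (12). miR-29b-3p and miR-29c-3p correlated at 0.90, 0.72 and 0.05 in SHSY5Y, HEK293 and A375.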

How the data were processed

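Raw counts per mature miRNA entry were made by the authors, who trimmed reads with cutadapt 2.4, aligned them with bowtie2 to hg38 and counted overlaps with bedtools; the versions of the last 2 tools, and the treatment of reads that fit several entries, are not given in the sources used here. The deposited count table was used as it stands, with 42 libraries and 2657 entries, all columns being mapped to samples. Entries that reached 10 counts in 3 or more libraries were tested with edgeR 4.0.16 (R 4.3.3), with library sizes from all entries, TMM scaling, quasi-likelihood tests and Benjamini-Hochberg adjustment at 0.05. Each line had 1 fit over 4 groups, the IP its own, and lines were compared in a fit of 34 libraries. Means, SDs and shares use deposited totals. Ratios were tested by exact permutation (scipy 1.17.1), with intervals from the shifts that the test did not refuse. The IP replicates are labelled as biological; those of the fractions are numbered only, so their p-values measure the spread between these samples, which may be technical. All scripts were tested on simulated data.

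Same-numbered IP libraries shared an adapter and deviated together (r = 0.58, 0.34 and 0.39), so the numbers pair them; those of the fractions did not (r from -0.17 to 0.26). The named entries are the 3 members, their 4 5p strands, the 5 entries most like each member, and leading entries of the lists. The members, lists and rules were chosen with earlier results of these data known. Alternatives were DESeq2 1.42.0, other scalings and filters, the replicate block, all libraries, the other naming and each library left out; library sizes after the filter, the confluency ratios, the confluency difference between lines and the adapter correlation without 1 library were added after seeing the data. The 2 libraries of 31 and 39 counts were left out. Intervals of shares cover counting error only.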

Additional observations from a re-analysis of the deposited data

Results flagged for a closer look

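The confluency difference of the members differed between lines by the edgeR interaction test. In cytoplasm, SHSY5Y minus HEK293 was -2.03 for miR-29a-3p, -3.10 for miR-29b-3p and -2.52 for miR-29c-3p (adjusted p = 5.29e-04, 0.00143 and 0.00403 by edgeR). Of all 478 entries 32.0% passed that comparison, and on IP-detected entries alone no member did. A375 minus SHSY5Y was 1.47 for miR-29a-3p and 3.46 for miR-29b-3p in cytoplasm (adjusted p = 0.00711 and 2.96e-04 by edgeR), and 3.28 for miR-29b-3p in nuclei (adjusted p = 0.0218). There 25.7% of entries passed in cytoplasm and 1.67% in nuclei. The difference between nucleus and cytoplasm also differed, at -1.21 for miR-29a-3p and -1.51 for miR-29b-3p in A375 minus SHSY5Y (adjusted p = 0.00252 and 0.0321 by edgeR). For it 30.3% of entries passed, and neither call held with DESeq2 or on IP-detected entries. Line cannot be told apart from sequencing pool, or SHSY5Y from its culture medium, in these comparisons. The edgeR fits used no rule for single outlying samples, so HEK293 subconfluent nucleus replicate 3 was not picked by such a rule there. DESeq2 gave no adjusted p for miR-29b-3p in HEK293, between fractions or between confluencies. Whether replicate 3 was the reason was not tested.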

How the results depend on the processing

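Over 9 member and line combinations, nucleus against cytoplasm depended on scaling. In SHSY5Y, miR-29b-3p (0.79) was no longer called with DESeq2 (0.67), library totals (0.58), no filter (0.61), IP-detected entries only (0.090), all libraries kept (0.59) or library sizes after the filter (0.60), and miR-29a-3p (0.93) with no filter (0.69) or IP-detected entries only (0.20). miR-29c-3p there passed with sequenced reads (0.88) and with the names of the summary table (1.76), and miR-29b-3p in A375 with library totals (-0.79). Leaving out 1 library gave 0.50 to 0.89 for miR-29b-3p and 0.42 to 0.79 for miR-29c-3p in SHSY5Y, -0.86 to -0.50 for miR-29b-3p in A375 and -1.18 to 0.21 for it in HEK293. The causes were not tested.

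Values that had not been called changed sign as follows. HEK293, nucleus against cytoplasm: miR-29c-3p gave -0.18 with library totals, -0.12 with no filter, -0.34 on IP-detected entries, -0.46 with the other names and -0.34 to 0.26 without 1 library, and miR-29b-3p gave 0.089 with sequenced reads, 0.035 with all libraries and 0.86 with the other names. In confluent HEK293 cells miR-29a-3p gave 0.24 with sequenced reads and -0.39 to 0.0037 without 1 library, and in subconfluent cells leaving out 1 library gave -1.27 to 1.56 for miR-29b-3p and -0.086 to 0.85 for miR-29c-3p. A375: miR-29c-3p gave 0.073 with DESeq2, 0.25 with sequenced reads, 0.63 with the other names and -0.27 to 0.19 without 1 library (3 such fits no longer tested it). In confluent A375 cells it gave 0.44 with the other names and -0.83 to 0.19 without 1 library, and in subconfluent cells -0.016 to 0.47. miR-29b-3p in subconfluent A375 cells gave 0.14 with sequenced reads, and miR-29a-3p gave -0.044 on IP-detected entries and -0.074 to 0.40 without 1 library; miR-29a-3p over both confluencies gave 0.32 with the other names. In confluent SHSY5Y cells miR-29c-3p gave -0.14 with no filter and -0.34 to 0.44 without 1 library, and IP-detected entries gave -0.19, -0.15 and -0.43 for miR-29a-3p, miR-29b-3p and miR-29c-3p.

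For confluent against subconfluent nuclei of HEK293, miR-29c-3p gave 0.59 with sequenced reads, 0.044 with no filter and -0.87 to 0.65 without 1 library, and miR-29b-3p -2.45 to 0.42 without 1 library. In A375, miR-29b-3p in nuclei gave -0.015 with DESeq2, -0.55 with sequenced reads and -0.18 to 0.26 without 1 library, and in cytoplasm miR-29a-3p gave -0.011 with DESeq2 and -0.14 to 0.41 without 1 library and miR-29c-3p 0.21 with the other names and -0.61 to 0.066 without 1 library. Of 6 member and fraction combinations, SHSY5Y had 6 called, and 3 with the other names. HEK293 had 0 called, 1 with library totals, all libraries or the other names, 2 with no filter and 0 to 2 without 1 library; A375 had 0, 1 with DESeq2 and 0 to 1 without 1 library. Between lines, A375 against HEK293 changed sign for the nuclear shift of miR-29c-3p (0.049 with library totals, 0.16 on IP-detected entries) and the nuclear confluency difference of miR-29a-3p (0.026 and 0.42), and SHSY5Y against HEK293 for the level of miR-29c-3p (-0.14 with library totals) and the nuclear shift of miR-29a-3p (-0.093 with DESeq2).

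Ratios with the other names were 0.31 to miR-29a-3p and 0.82 to miR-29c-3p for nucleus against cytoplasm in HEK293 and 1.19 to miR-29a-3p in SHSY5Y, and for confluent against subconfluent cells 1.01 and 0.45 in HEK293 and 0.075 to miR-29a-3p in SHSY5Y. Leaving out 1 library gave -0.20 to 0.062 and -0.20 to 0.24 for the SHSY5Y fraction ratios to miR-29a-3p and miR-29c-3p, -0.55 to 0.13 for the HEK293 confluency ratio to miR-29a-3p, 0.46 to 0.75 and 0.74 to 1.43 for the A375 confluency ratios, and -1.29 to -1.05 for the SHSY5Y confluency ratio to miR-29a-3p. The last of these was not called in any such fit, where too few relabelings remained for it to pass alone.

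The replicate block moved miR-29a-3p in the IP past the threshold at 0.12. In the fractions, whose numbers pair nothing, the replicate block turned miR-29c-3p in HEK293 nuclei to 0.11 and miR-29b-3p in A375 nuclei to -0.052 for confluent against subconfluent cells, and changed no call. DESeq2 gave no adjusted p for miR-29b-3p in HEK293. A pseudocount of 1 changed the call or direction of 0 of 14 ratios. Depth limited miR-29c-3p, with 2 to 24 counts per library in A375, and nuclear miR-29 counts in HEK293, where 4 to 18 stood per member outside 1 library.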
